A study of Mus musculus with 4 samples.

Results

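PαS cells cultured with IL-17A and BMP-2 together were set against the same cells cultured with no cytokine, in 1 messenger RNA library each. A gene was compared where its exon reads averaged 50 or more over both libraries, which held for 8596 of the 46517 genes listed. This filter did not use the difference, but many of the genes named below were picked by theirs. PαS cells are mesenchymal cells that carry PDGFRα and Sca-1 and lack CD45, CD11b, Ter119, CD31 and CD34 on the surface. They were sorted from the injured tissue in and around the femur of wild-type C57BL/6J mice, seeded at 3000 cells per well and kept in osteogenic medium, which held ascorbic acid, dexamethasone and β-glycerophosphate. After 7 days RNA was taken from 4 cultures, which received IL-17A at 10 ng per ml with BMP-2 at 500 ng per ml, BMP-2 alone at 500 ng per ml, IL-17A alone at 10 ng per ml, or neither. The labels give no age of the mice and do not say how many animals were pooled. Since each condition had 1 library, no difference has a replicate check and no p-value is given.

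IL-17A is a cytokine of T cells that binds the receptor chains IL-17RA and IL-17RC on mesenchymal cells, signals through the adaptor Act1 and NF-κB, and is known for raising chemokine and acute phase genes and for slowing the decay of their mRNA. BMP-2 binds type I and type II serine/threonine kinase receptors, which phosphorylate SMAD1, SMAD5 and SMAD8 and thereby raise *Id* genes, inhibitory SMADs and, in osteoblast precursors, *Sp7* and *Alpl*. The comparison asks which mRNAs differ when mesenchymal progenitor cells that can become osteoblasts or adipocytes receive both signals.

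The 4 libraries held 4190612 to 4719412 exon reads, of which 53.1 to 53.9% spanned an exon-exon junction and 10.6 to 10.97% were not unique to a gene. Introns took 7.17% of the gene reads with both cytokines and 6.25% with no cytokine. The sort marker genes were present, with 695 exon reads of *Pdgfra* and 8944 of *Ly6a*, which encodes Sca-1, with both cytokines, against 739 and 10269 with no cytokine. Some markers of the lineages the gate leaves out were scarce and others were not. *Pecam1*, the gene of CD31, and *Cdh5* had 0 reads in all 4 libraries, and *Ptprc*, the gene of CD45, had 0 reads with both cytokines and 4 with no cytokine. *Cd34*, by which cells were gated out, had 0 reads with both cytokines, 12 with BMP-2, 44 with IL-17A and 94 with no cytokine. Of 16 macrophage and leukocyte markers 2 were measured, *Csf1r* and *Lyz2*, and the whole list summed to 139 CPM (exon reads scaled to a library sum of 1000000) with both cytokines, 474 with BMP-2, 172 with IL-17A and 193 with no cytokine. Their part in the differences was not tested. Erythroid markers had at most 1 read and lymphocyte markers at most 7 reads per library, summed over the list. Among 12 endothelial, 12 skeletal muscle and 8 Schwann cell markers, 1 of each passed the filter (*Ramp2*, *Acta1* and *Pmp22*), and all 3 were within 2-fold in exon reads, *Ramp2* at 0.871 times there and at 0.333 times in unique reads. Reads are printed as counted, and the library with IL-17A alone was the smallest.

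Reads were scaled by the exon reads of each library, and a gene was called when the ratio of both cytokines over no cytokine was at least 2 or at most 0.5. By this rule 827 genes were higher (9.62% of those measured) and 706 were lower (8.21%). These 2 shares are the background given beside the counts of each gene list, and they are not matched to the depth of its genes. At 50 to 100 mean reads 19.4% of genes were higher and 17.2% lower, and at 500 or more 2.51% and 2.30%. A list of genes with few or many reads may therefore differ from the background by depth alone. The median log2 ratio of all measured genes was 0.06, with quartiles at -0.36 and 0.48. Counted again in reads unique to a gene and in exon-exon reads, 607 genes were at least 2-fold higher in all 3 columns with every 95% interval excluding 1 (7.06%), and 546 were lower by the same rule (6.35%). No gene called in exon reads ran the other way beyond its interval in either further column. Next to the threshold lay *2700029M09Rik* (2.0001 times, inside) and *Pabpc1* (just under 2, outside) on the higher side, and *Arxes2* (just under 0.5, inside) and *Med18* (0.501, outside) on the lower side. Intervals are exact (Clopper–Pearson) and come only from the split of a gene's reads between both libraries, so they reach no further than counting error. Reads amplified by PCR with no molecular identifier do not stand for separate molecules, so the intervals may be too narrow even for that. Fewer cells of a type and less mRNA per cell cannot be told apart in such bulk libraries.

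**Figure D1:**
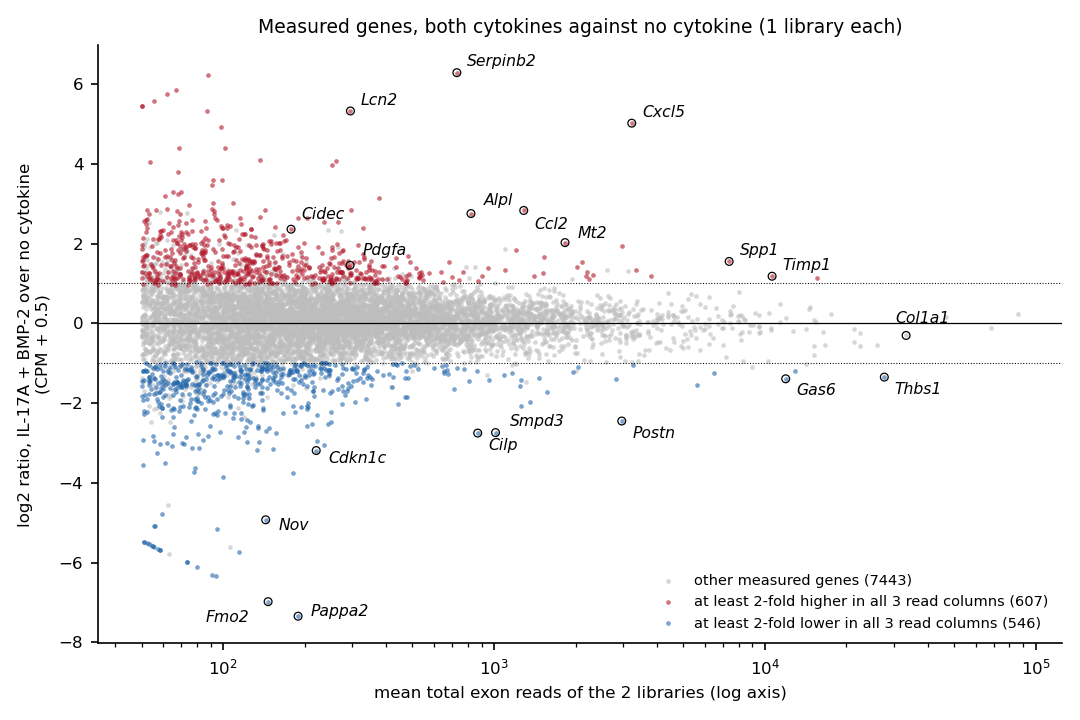
Log2 ratio of IL-17A + BMP-2 over no cytokine (CPM + 0.5) against the mean exon reads of the 2 libraries on a log axis, 1 point per measured gene. Genes at least 2-fold higher in all 3 read columns are red (607) and those at least 2-fold lower are blue (546), the dotted lines mark 2-fold, and *Serpinb2*, *Lcn2* and *Cxcl5* lie highest among the circled genes while *Pappa2* and *Fmo2* lie lowest.

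Among the gene lists examined, chemokine and inflammatory genes that IL-17 is known to raise had the highest median. Of 27 genes listed as IL-17 targets 16 were measured, 10 were at least 2-fold higher (62.5%, against 9.62% of all measured genes) and 0 lower, and 9 of the 10 were higher in all 3 columns. The median log2 ratio of the 16 was 1.92. The list was drawn up for this cytokine with results of these libraries known, so its direction is not independent evidence. *Cxcl5*, encoding a chemokine of neutrophils, had 6263 exon reads with both cytokines, 306 with BMP-2, 4882 with IL-17A and 189 with no cytokine, which made it 32.8-fold higher with both than with none (95% interval 28.4 to 38.1). *Cxcl1*, another neutrophil chemokine gene, had 495, 26, 308 and 27 reads in the same order of libraries and was 18.2-fold higher (12.3 to 27.8). The monocyte chemokine genes *Ccl2* and *Ccl7* were less far apart. *Ccl2* had 2262 reads with both cytokines, 433 with BMP-2, 2167 with IL-17A and 313 with no cytokine (7.16-fold), and *Ccl7* had 4714, 1842, 3490 and 1224 (3.81-fold). For *Cxcl5*, *Cxcl1* and *Ccl2* the libraries with IL-17A stood apart from those without it, whether or not BMP-2 was present.

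*Lcn2* (chr2:32384633-32388252 on mm10, minus strand), whose product lipocalin-2 binds bacterial siderophores, had 578 reads with both cytokines, 67 with BMP-2, 532 with IL-17A and 12 with no cytokine (47.7-fold, 27.1 to 92.9). *Nfkbiz*, the gene of the NF-κB cofactor IκBζ, had 477 reads with both, 64 with BMP-2, 527 with IL-17A and 28 with no cytokine, and was 16.9-fold higher. *Zc3h12a*, which encodes the ribonuclease Regnase-1 that degrades inflammatory mRNA, was 5.54-fold higher, with 263 reads with both cytokines and 47 with no cytokine. The prostaglandin synthase gene *Ptgs2* (400 against 104 reads, 3.81-fold) and the matrix protease gene *Mmp3* (327 against 50 reads, 6.48-fold) were also higher with both cytokines than with none. *Cebpd*, a C/EBP transcription factor gene, was 2.18-fold higher in exon reads but in exon-exon reads, at 2.30-fold, the interval includes 1. *Cebpb*, which had no exon-exon reads, was at 1.94 times. The other listed targets measured did not reach 2-fold, among them the adhesion genes *Icam1* (0.935 times) and *Vcam1* (0.745 times). *Il6* was under the filter, with 44 reads with both cytokines, 19 with BMP-2, 43 with IL-17A and 13 with no cytokine.

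The promoter windows of a chemokine, a serpin and a mineralization gene are printed here as examples chosen after the values were seen, since NF-κB, C/EBP and SMAD proteins are the factors these cytokines are known to act through. Each is the 250 bases before the start of the gene in RefSeq (GRCm38.p6, the assembly of mm10), given 5′ to 3′ on the strand of the gene, with motif matches on either strand in capitals.
*Cxcl1* (chr5:90890995-90891244, plus strand): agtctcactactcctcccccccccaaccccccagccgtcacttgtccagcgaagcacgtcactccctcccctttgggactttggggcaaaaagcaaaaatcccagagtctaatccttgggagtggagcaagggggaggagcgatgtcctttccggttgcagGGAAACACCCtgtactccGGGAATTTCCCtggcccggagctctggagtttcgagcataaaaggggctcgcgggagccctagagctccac
*Serpinb2* (chr1:107511173-107511422, plus strand): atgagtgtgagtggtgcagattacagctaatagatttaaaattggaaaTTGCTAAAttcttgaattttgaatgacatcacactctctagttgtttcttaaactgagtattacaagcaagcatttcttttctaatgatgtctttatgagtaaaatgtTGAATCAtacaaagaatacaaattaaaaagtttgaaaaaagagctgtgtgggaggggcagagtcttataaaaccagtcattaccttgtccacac
*Alpl* (chr4:137796385-137796634, minus strand): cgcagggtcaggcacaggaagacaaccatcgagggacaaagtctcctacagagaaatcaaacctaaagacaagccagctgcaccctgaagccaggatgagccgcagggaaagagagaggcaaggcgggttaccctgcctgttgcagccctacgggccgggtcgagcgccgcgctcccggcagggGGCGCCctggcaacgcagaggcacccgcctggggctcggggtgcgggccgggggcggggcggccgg

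In the *Cxcl1* window the capitals mark 3 matches of an NF-κB type motif (GGG, any 3 bases, then TTCC), which begin 89, 71 and 70 bases before the start, the last of them overlapping. The *Serpinb2* window holds a C/EBP type match (TTGCNNAA) and an AP-1 match (TGANTCA), and the *Alpl* window a GC-rich SMAD type match (GGCGCC). These letters are common. Of 16562 promoters of the same length, 4.63% hold the NF-κB type motif, 9.26% the C/EBP type, 6.19% the AP-1 motif and 12.4% the SMAD type. Of the genes higher in all 3 columns, 429 had a promoter entry, of which 2.56%, 7.93%, 4.90% and 20.5% hold those motifs in the same order. For the 388 with an entry among the lower genes the shares were 4.90%, 8.51%, 4.90% and 17.5%, and for the 6209 of all measured genes 5.31%, 7.46%, 3.77% and 18.2%. A match describes the letters of the window and was not tested as a binding site.

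Of 15 measured genes for the receptor and adaptors of IL-17, 2 were higher and 2 lower (13.3% each, near the background of 9.62% and 8.21%) and 11 were within 2-fold, with a median log2 ratio of -0.33. *Il17ra*, the gene of the receptor chain that binds IL-17A, had 138 reads with both cytokines, 294 with BMP-2, 539 with IL-17A and 410 with no cytokine, 0.333 times the level without cytokine (0.273 to 0.405). Its partner chain gene *Il17rc* had a ratio of 0.559. *Traf3*, encoding an adaptor known to hold back IL-17 and non-canonical NF-κB signalling, had 8 reads with both cytokines, 278 with BMP-2, 191 with IL-17A and 114 with no cytokine (0.0695 times, 0.0293 to 0.142). In exon-exon reads *Traf3* was at 0.266 times (0.0974 to 0.629), with 7 reads with both cytokines and 26 with no cytokine. *Relb*, an NF-κB subunit gene, was higher (110 against 43 reads, 2.53-fold), as was *Mapk7*, which encodes the kinase ERK5 (299 against 106 reads, 2.79-fold, and 7.21-fold in exon-exon reads).

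The gene farthest above its untreated level on a counted ratio was *Serpinb2* (chr1:107511423-107535478 on mm10, plus strand), which encodes plasminogen activator inhibitor type 2. It had 1442 exon reads with both cytokines, 166 with BMP-2, 380 with IL-17A and 16 with no cytokine, an 89.3-fold difference (54.8 to 157) that was 89.6-fold in unique reads and 214-fold in exon-exon reads, of which the library with no cytokine had 4. Among the 25 genes ranked highest by the near bound of their interval, several besides the chemokines encode secreted defence and protease inhibitor proteins. *Slpi*, the gene of secretory leukocyte protease inhibitor, had 676, 205, 298 and 74 reads in the same order of libraries and was 9.05-fold higher. *Serpina3m*, an acute phase serpin gene whose near-identical neighbours may share its reads, was 11.9-fold higher, with 120 reads with both cytokines and 10 with no cytokine. *Cp*, encoding the copper protein ceruloplasmin, had 124 reads with both cytokines, 1 with BMP-2, 121 with IL-17A and 0 with no cytokine, and was at least 40.9-fold higher when a floor of 3 reads is set for the library at 0. Of these 25 genes, 6 had 0 reads with no cytokine and 16 had a mean under 100 reads.

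Other genes among the 25 highest have no inflammatory role in common. *Itga7*, the gene of a laminin-binding integrin chain, had 133 reads with both cytokines, 42 with BMP-2, 5 with IL-17A and 4 with no cytokine (32.9-fold, 12.6 to 123). *Kntc1*, which encodes a kinetochore protein, had 172 reads with both cytokines and 2 with no cytokine, a ratio of 85.2 whose interval runs from 23.2 to 709. *Acacb*, the gene of acetyl-CoA carboxylase 2, had 100 reads with both cytokines, 0 with BMP-2, 15 with IL-17A and 0 with no cytokine, so it was at least 33.0-fold higher. *Dhx34*, an RNA helicase gene of mRNA surveillance, had 175 reads with both cytokines, 64 with BMP-2, 30 with IL-17A and 0 with no cytokine (at least 57.8-fold). *Nav3*, encoding a microtubule-binding protein, had 134, 151, 53 and 0 reads, so its highest library was that with BMP-2 alone. Further genes of the 25, *Fam102a*, *Ddx55*, *Lgi2*, *Dusp18*, *Ttll4*, *Fam13a*, *Mrpl23*, *Usp24*, *G2e3* and *Osbpl8*, ranged in exon reads from a ratio of 11.6 for *Osbpl8* to 47.5 for *Ddx55*, with *Fam102a* at 0 reads without cytokine (at least 36.6-fold). In exon-exon reads *Osbpl8* was 59.2-fold higher, on 1 read without cytokine (10.2 to 2379), and *Ddx55* 31.8-fold. *Dusp18* was 19.9-fold higher in exon reads and 4.94-fold in exon-exon reads, and *Mrpl23* had no unique reads without cytokine.

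**Figure D2:**
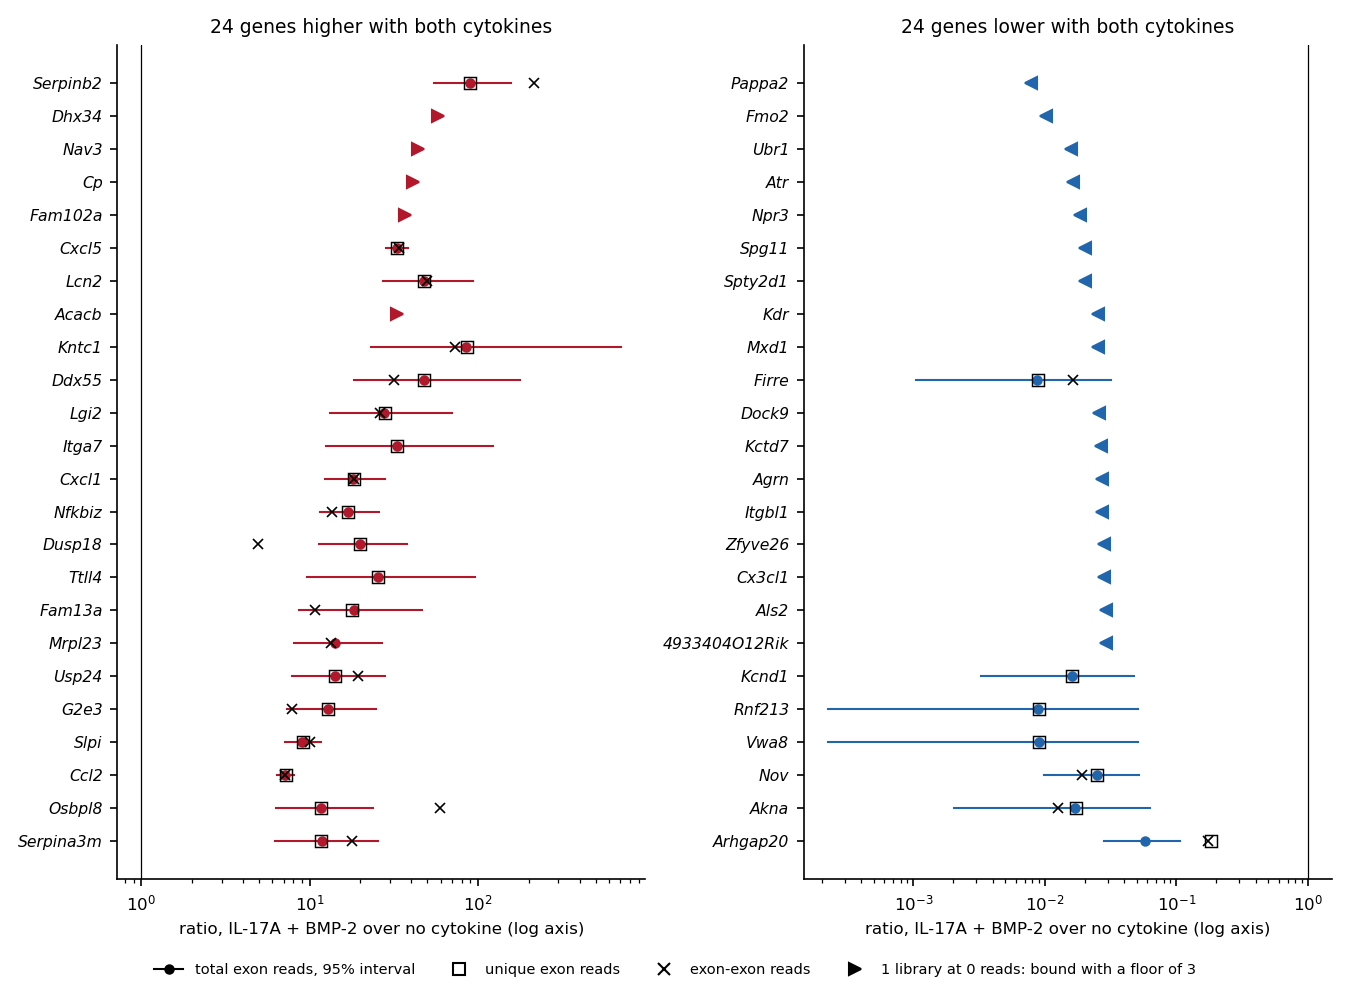
Ratio of IL-17A + BMP-2 over no cytokine (log axes) for 24 of the 25 genes ranked highest (left) and 24 of the 25 ranked lowest (right) in all 3 read columns. Circles with bars give exon reads with their 95% interval, squares unique reads, crosses exon-exon reads where both libraries had some, and triangles the bound for genes at 0 reads in 1 library, which make up 5 of the higher and 17 of the lower genes drawn.

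Of 27 listed osteoblast and mineralization genes 14 were measured, 4 were higher (28.6%, background 9.62%) and 3 lower (21.4%, background 8.21%), and the median log2 ratio was -0.08. *Alpl* (chr4:137741733-137796384, minus strand), the gene of tissue-nonspecific alkaline phosphatase that frees phosphate for mineral, had 1435 reads with both cytokines, 364 with BMP-2, 864 with IL-17A and 209 with no cytokine. It was 6.80-fold higher with both than with none (5.88 to 7.90), and each single cytokine library lay between these. *Sp7*, which encodes the osteoblast transcription factor osterix, had 240 reads with both, 209 with BMP-2, 54 with IL-17A and 55 with no cytokine (4.32-fold, 3.21 to 5.90), so its 2 libraries with BMP-2 stood apart from the 2 without. *Spp1*, the gene of the mineral-binding protein osteopontin, had 11039, 4769, 6094 and 3729 reads in the same order (2.93-fold). *Slc20a2*, a phosphate carrier gene, was 2.04-fold higher in exon reads, 1.87-fold in exon-exon reads and 1.95-fold with TMM scaling.

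Other bone genes were lower or within 2-fold. *Postn*, whose product periostin lies in periosteum and other collagenous tissue, had 922 reads with both cytokines, 3026 with BMP-2, 2259 with IL-17A and 5004 with no cytokine (0.182 times, 0.170 to 0.196). *Mgp*, the gene of matrix Gla protein, an inhibitor of calcification, had 238, 326, 278 and 608 reads in the same order (0.388 times). *Tnfrsf11b*, encoding osteoprotegerin, which blocks the osteoclast factor RANKL, had 17, 18, 15 and 85 reads (0.198 times, 0.110 to 0.336), so its 3 cytokine libraries lay close together below the untreated one. *Col1a1*, the main collagen gene of bone, had 29909 reads with both cytokines and 36584 with no cytokine (0.810 times), and *Sparc*, encoding osteonectin, 49516 and 44226 (1.11 times). The osteoblast master regulator gene *Runx2* had 80 reads with both cytokines and 103 with no cytokine, and its interval (0.567 to 1.04) includes 1. *Bglap*, the gene of osteocalcin in mature osteoblasts, was under the filter, with 0 reads with both cytokines, 1 with BMP-2, 3 with IL-17A and 2 with no cytokine. Of the 27 listed, 8 had 0 reads in both libraries, namely *Ibsp*, *Bglap2*, *Dmp1*, *Phex*, *Mepe*, *Phospho1*, *Omd* and *Sost*.

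The list of BMP-SMAD targets was drawn up, like that of IL-17 targets, with results of these libraries known. The medians of these lists therefore do not rank the signals. Of 20 listed BMP-SMAD targets 11 were measured, and their median log2 ratio of 0.24 lay below that of the IL-17 targets. In all 3 columns 3 were higher (27.3%, against 7.06% of all measured genes). In exon reads 1 was lower (9.09%, near the background of 8.21%). *Bambi*, encoding a pseudoreceptor that dampens BMP and TGF-β signals, had 117 reads with both cytokines, 107 with BMP-2, 12 with IL-17A and 29 with no cytokine (3.996-fold, 2.64 to 6.23). The homeobox gene *Dlx2* had 147, 124, 56 and 68 reads in the same order (2.14-fold), and *Smad7*, the gene of an inhibitory SMAD, had 338, 265, 192 and 164 (2.04-fold). *Smad7* lost its call when scaled with TMM (1.95-fold) or DESeq2 size factors (1.95-fold) or without the 100 most abundant genes (1.99-fold). *Bambi* and *Dlx2* thus had their higher reads in both libraries with BMP-2. *Id1* (1.18 times) and *Id3* (1.12 times), inhibitors of DNA binding that respond to BMP early, were within 2-fold, as was *Smad6* (1.90 times), although its exon-exon reads gave 3.12 times. *Fst*, which encodes the activin and BMP antagonist follistatin, had 699, 1623, 1288 and 1928 reads (0.359 times, but 0.540 times in exon-exon reads). Of 10 measured BMP receptor and SMAD genes 1 was higher (10%, near the background of 9.62%), namely *Acvr1*, a type I receptor gene (174 against 71 reads, 2.43-fold). The other 9 were within 2-fold in exon reads, and the list had a median of -0.07 (-0.42 in exon-exon reads). In exon-exon reads the receptor genes *Bmpr1a* and *Acvrl1* were at 0.350 and 0.408 times, *Bmpr2* was at 0.228 times on 3 against 13 reads (0.0417 to 0.829), and *Smad5* had 0 such reads with both cytokines and 11 with no cytokine. *Bmpr1a*, at 0.512 times in exon reads, was called lower with TMM (0.489 times) and with DESeq2 size factors (0.490 times).

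Adipocyte and lipid droplet genes had a median log2 ratio of 0.34 over 25 measured of 31. Of these 4 were higher (16.0%, against 9.62% of all measured genes) and 2 lower (8%, near the background of 8.21%). *Cidec* (chr6:113424634-113435760, minus strand), encoding a protein that fuses lipid droplets, had 300 reads with both cytokines, 207 with BMP-2, 76 with IL-17A and 56 with no cytokine (5.31-fold, 3.98 to 7.19). *Retn*, the gene of the adipocyte hormone resistin, had 118, 64, 58 and 22 reads in the same order, also 5.31-fold. *Fabp4*, a fatty acid binding protein gene of adipocytes, had 3041, 1386, 1398 and 1331 (2.26-fold), so that its 3 other libraries lay close together below that with both cytokines. *Adipoq*, encoding adiponectin, was 2.19-fold higher with both cytokines, at 250 reads against 113. The master regulator genes of the lineage did not share this direction, with *Pparg* at 0.807 times and *Cebpa* at 1.01 times the level without cytokine. *Zfp423*, encoding a factor of preadipocyte commitment, had 32 reads with both cytokines and 125 with no cytokine (0.254 times), and *Klf15*, another adipogenic factor gene, 102 and 248 (0.407 times).

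Genes of secreted growth factors, 28 measured of 39 listed, were called in both directions more often than the background. Of the 28, 9 were higher (32.1%, background 9.62%) and 7 lower (25%, background 8.21%). In all 3 columns 5 of the 28 were higher and 6 lower, where the shares of all measured genes were 7.06% and 6.35%. *Pdgfa* (chr5:138976014-138997370, minus strand), the A chain of platelet-derived growth factor, had 433 reads with both cytokines, 195 with BMP-2, 217 with IL-17A and 155 with no cytokine (2.77-fold, 2.30 to 3.35). *Pdgfc*, the gene of another PDGF chain, had 273, 147, 136 and 88 reads in the same order (3.07-fold, 2.41 to 3.95), and both genes were highest in the library with both cytokines. *Mdk*, encoding the heparin-binding factor midkine, had 422, 319, 352 and 104 reads (4.02-fold), and *Gdf15*, a stress-induced TGF-β family gene, 223, 140, 70 and 59 (3.74-fold). *Lif*, a gene of the IL-6 family, had 104 reads with both cytokines, 0 with BMP-2, 57 with IL-17A and 13 with no cytokine (7.92-fold, 4.44 to 15.4), and its exon-exon reads were 5 with both cytokines and 0 with no cytokine.

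*Fgf2*, the basic fibroblast growth factor gene, was called in exon reads and not in the other columns. It had 457 exon reads with both cytokines, 282 with BMP-2, 76 with IL-17A and 89 with no cytokine (5.09-fold), but the ratio was 0.937 in reads unique to it and 0.935 in exon-exon reads. On mm10 the annotated span of *Fgf2* (chr3:37348346-37410108, plus strand) overlaps that of *Nudt6* (chr3:37404910-37420211, minus strand), and the cDNA kit does not mark strand. *Nudt6* had 8 exon reads with both cytokines and 63 with no cytokine, and the part of the overlap in the gap between the columns was not tested. *Tgfb1* stayed under the filter, with 48 reads with both cytokines and 14 with no cytokine. Among the factors that were lower, *Nov*, which encodes the matricellular protein CCN3, an antagonist of BMP signals, had 7 reads with both cytokines, 61 with BMP-2, 41 with IL-17A and 280 with no cytokine (0.0248 times, 0.00986 to 0.0517). *Bmp6*, an osteogenic BMP gene, had 19, 94, 54 and 142 reads in the same order (0.133 times), and *Bmp4* had 10, 10, 0 and 91 (0.109 times). *Figf*, the gene of VEGF-D, had 687 against 1826 reads (0.373 times) and *Pdgfd* 47 against 163 (0.286 times).

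Growth factor receptor genes were called on the lower side. Of 17 measured, 6 were lower in all 3 columns (35.3%, against 6.35% of all measured genes) and 0 higher. The median log2 ratio was -0.71 (-0.16 over members averaging 10 reads or more). *Fgfr2*, an FGF receptor gene of the osteoblast lineage, had 71 reads with both cytokines, 214 with BMP-2, 124 with IL-17A and 418 with no cytokine (0.168 times, 0.129 to 0.217). Its introns held more reads than its exons, 1510 with both cytokines and 1869 with no cytokine. *Tgfbr1* and *Tgfbr2*, the receptor genes of TGF-β, had 114 and 382 reads with both cytokines against 383 and 822 with no cytokine (0.295 and 0.460 times). *Egfr*, the epidermal growth factor receptor gene, had 111 against 357 reads (0.308 times) and *Igf1r*, the receptor gene of IGF-1, 63 against 157 (0.397 times). *Kdr*, which encodes a VEGF receptor known from endothelium, had 0 reads with both cytokines, 70 with BMP-2, 0 with IL-17A and 117 with no cytokine, at least 39.4-fold lower with both. The receptor genes with the most reads were within 2-fold, as *Axl* (0.897 times), *Pdgfrb* (0.597 times) and the sort marker gene *Pdgfra* (0.931 times) show.

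Of the 8 measured genes for IGF binding proteins and the proteases that cleave them, 4 were lower (50%, background 8.21%), 0 higher and the median log2 ratio was -0.91. *Pappa2* (chr1:158711727-158980490, minus strand), encoding a protease that frees IGF from its binding proteins, had 0 reads with both cytokines, 61 with BMP-2, 109 with IL-17A and 378 with no cytokine. It was at least 127-fold lower with both cytokines, the largest such bound among the lower genes. *Igfbp2* had 1568, 3452, 1367 and 4088 reads in the same order (0.380 times), and *Igfbp4* 2129, 4750, 2042 and 4387 (0.481 times), so for both genes the 2 libraries with IL-17A lay below the 2 without. *Igfbp3* was lower at 190 against 409 reads (0.460 times). *Igfbp7*, with the highest level of the family once scaled for length (RPKM, exon reads per kilobase of exon and library size) at 818 RPKM with both cytokines and 740 RPKM with no cytokine, was within 2-fold (1.12 times).

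Extracellular matrix genes listed as glycoproteins and proteoglycans were lower with both cytokines or within 2-fold. The matrix genes *Spp1* and *Prg4*, which stand in other lists, were higher. Of 21 measured glycoprotein and proteoglycan genes 7 were lower (33.3%, background 8.21%), 6 of them in all 3 columns, 0 were higher, and the median log2 ratio was -0.48. The list summed to 17823 CPM with both cytokines, 24345 with BMP-2, 25423 with IL-17A and 29052 with no cytokine. *Thbs1*, encoding thrombospondin-1, which activates latent TGF-β, was the most read of them, with 15677, 29012, 26644 and 39573 reads in the same order (0.392 times, 0.385 to 0.400). *Eln*, the elastin gene, had 26, 43, 71 and 219 reads (0.118 times), *Dcn*, encoding the small proteoglycan decorin, 346, 472, 425 and 1077 (0.318 times), and *Fbln5*, an elastic fibre gene, 528, 530, 634 and 1200 (0.436 times). For these 3 genes each cytokine library lay below the untreated one. *Prelp* was lower in exon reads (0.490 times) but not by 2-fold in unique reads (0.576 times). *Fn1*, the fibronectin gene, was at 0.579 times.

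Collagen genes had a median log2 ratio of -0.58 over 16 measured, and 2 were called, both lower (12.5%, near the background of 8.21%), 1 of them in all 3 columns. *Col11a1*, a minor fibrillar chain gene, had 158 reads with both cytokines and 316 with no cytokine (0.495 times), and *Col8a2* had 0 and 107 reads and no exon-exon reads to compare. The abundant chains *Col1a2* (0.689 times), *Col3a1* (0.668 times) and *Col5a1* (0.555 times) lay below 1 without reaching 2-fold. Enzymes that modify collagen had a median of 0.01, with 1 of 12 higher (8.33%, near the background of 9.62%). It was the lysyl oxidase gene *Loxl4* (156 against 61 reads, 2.53-fold). Of 19 proteases and inhibitors of the matrix 1 was higher (5.26%, under the background of 9.62%) and 2 lower (10.5%, near the background of 8.21%). *Timp1*, which encodes an inhibitor of metalloproteinases, had 14807 reads with both cytokines, 8566 with BMP-2, 7739 with IL-17A and 6469 with no cytokine (2.27-fold), while the aggrecan-cleaving protease genes *Adamts5* (208 against 743 reads, 0.277 times) and *Adamts1* (822 against 2105 reads, 0.387 times) were lower. *Timp2* and *Timp3* lay at 0.517 and 0.518 times in exon reads and at 0.357 and 0.455 times in exon-exon reads, and both were called lower with TMM (0.494 and 0.495 times).

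Cartilage and tendon genes were measured in part. Of 17 chondrocyte genes 5 were measured, of which 1 was higher (20%, background 9.62%) and 3 were lower (60%, background 8.21%). Of the 17 listed, 9 had 0 reads in both libraries, among them *Acan* and *Col10a1*. *Cilp*, encoding a cartilage protein that binds TGF-β, had 225 reads with both cytokines, 999 with BMP-2, 241 with IL-17A and 1516 with no cytokine (0.147 times, 0.127 to 0.169). *Comp*, the gene of cartilage oligomeric matrix protein, had 523, 1251, 568 and 1386 in the same order (0.374 times), and *Col2a1*, the cartilage collagen gene, 125, 696, 320 and 436 (0.284 times). The 2 libraries with IL-17A were thus the lowest for all 3 genes. *Prg4*, which encodes the joint lubricant lubricin, was higher, at 286 against 111 reads (2.55-fold). Of 3 tendon markers measured, 1 was lower (33.3%, background 8.21%), namely *Thbs4* (173 against 708 reads, 0.242 times).

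**Figure D3:**
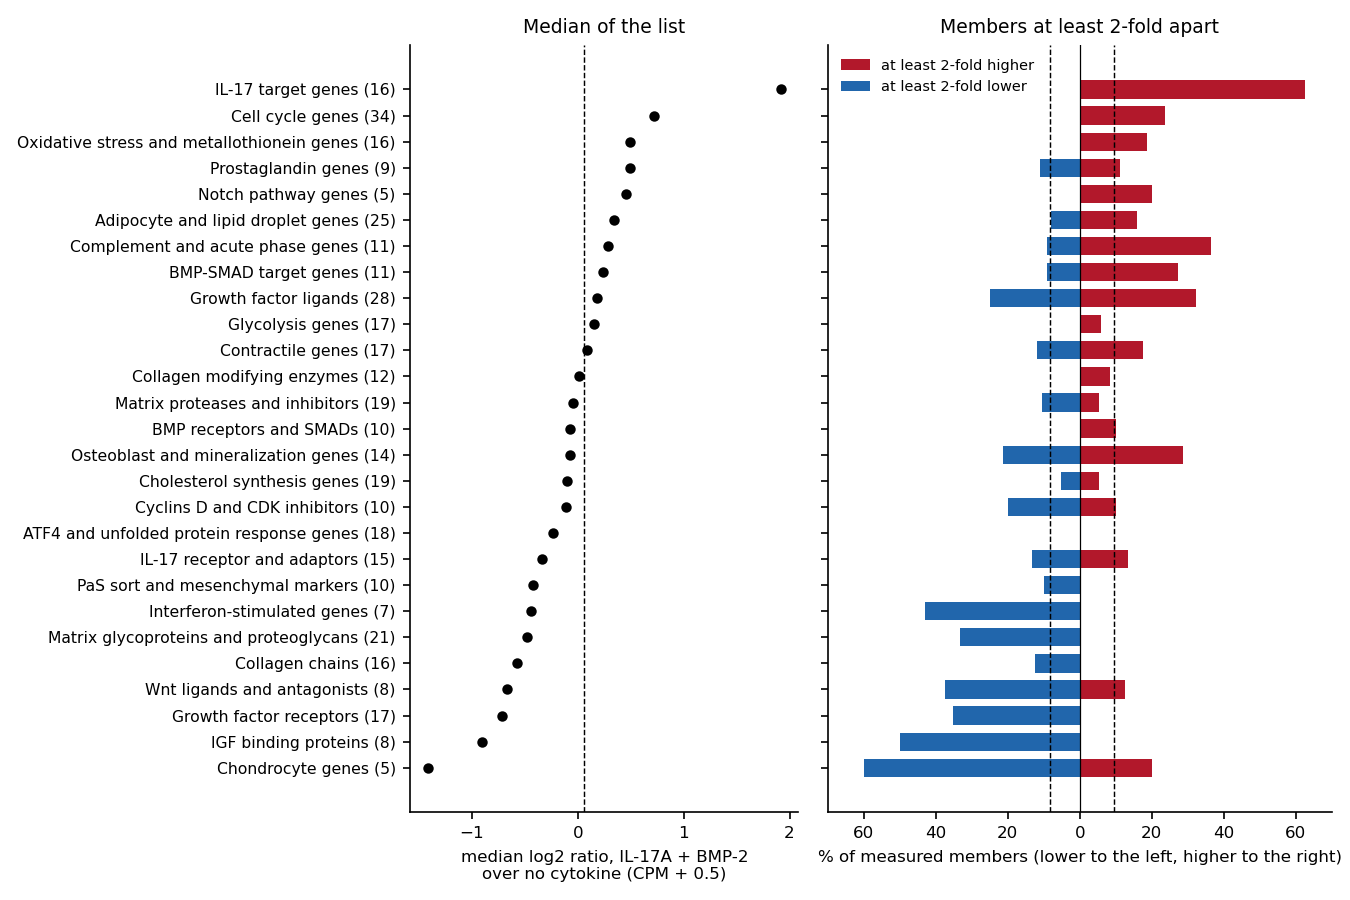
Median log2 ratio of IL-17A + BMP-2 over no cytokine (left) and percent of measured members at least 2-fold higher (red, to the right) or lower (blue, to the left) for each list with at least 5 measured genes, whose number stands in brackets. Dashed lines mark the same values over all 8596 genes (0.06, 9.62% and 8.21%), and the IL-17 targets lie at the top (1.92) and the chondrocyte genes at the bottom (-1.42).

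The 25 genes ranked lowest were nearly all of modest depth. With both cytokines 17 of them had 0 reads, and all 25 had a mean under 200 reads. *Fmo2*, encoding a flavin monooxygenase, had 0 reads with both cytokines, 93 with BMP-2, 20 with IL-17A and 293 with no cytokine (at least 98.6-fold lower). *Npr3*, the clearance receptor gene of natriuretic peptides, which is known to restrain bone growth in mice, had 0, 77, 51 and 160 reads in the same order (at least 53.9-fold lower). *Cx3cl1*, the gene of the chemokine fractalkine, had 0, 70, 175 and 105 reads, and *Agrn*, which encodes the basement membrane proteoglycan agrin, 0, 156, 114 and 110, so that for these genes the library with both cytokines stood alone below the other 3. *Atr*, the DNA damage kinase gene, had 0 reads with both cytokines and 182 with no cytokine, and *Ubr1*, a ubiquitin ligase gene, 0 and 188. *Firre*, a nuclear long noncoding RNA, had 2 reads with both cytokines and 226 with no cytokine (0.00876 times, 0.00105 to 0.0320). *Ubr1*, *Dock9* and *Zfyve26* kept 10, 11 and 24 intron reads in the library that had 0 exon reads of them.

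Genes that averaged 500 reads or more, a group chosen after the values were seen, rest on more reads. Of these 1911, 40 were higher in all 3 columns (2.09%, against 7.06% of all measured genes). By the same rule 35 were lower (1.83%, against 6.35%). Besides the chemokines, *Alpl* and *Spp1*, the higher ones included the metallothionein genes *Mt2* (2943, 1421, 3514 and 715 reads with both, BMP-2, IL-17A and no cytokine, 4.08-fold) and *Mt1* (4808, 2633, 3701 and 1888, 2.52-fold), which bind zinc and copper. *Gpc1* and *Sdc1*, encoding the cell surface heparan sulfate proteoglycans glypican-1 and syndecan-1, were 2.88-fold and 2.65-fold higher, with 3133 against 1076 and 2951 against 1102 reads, and *Gpc1* was 4.79-fold higher in exon-exon reads. *Pfn1*, the profilin gene of actin assembly, was the most read of the higher genes, at 21587 reads with both cytokines, 9679 with BMP-2, 6747 with IL-17A and 9714 with no cytokine (2.20-fold). *Ipo5*, a nuclear import gene (3.16-fold), *Eif3k*, a translation initiation gene (2.91-fold), and *Angptl2*, which encodes a secreted angiopoietin-like protein (2.44-fold), were further members.

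On the lower side of this group, *Smpd3*, the gene of neutral sphingomyelinase 2, which is known to be needed for mineralization in mice, had 264 reads with both cytokines, 1705 with BMP-2, 620 with IL-17A and 1762 with no cytokine (0.148 times, 0.130 to 0.169). *Aldh1a1*, encoding a retinaldehyde dehydrogenase, had 484, 1277, 780 and 2038 reads in the same order (0.235 times). *Tsc22d3*, a glucocorticoid-induced gene that encodes GILZ, had 558, 1563, 604 and 2169 reads (0.255 times), with both libraries that held IL-17A below both that did not, in a medium that contained dexamethasone throughout. *Gas6*, the gene of the ligand of AXL, had 6636, 13071, 7177 and 17252 reads (0.381 times), and *Wisp2*, a CCN family gene, 3905, 6199, 6015 and 9120 (0.424 times). *Gsn*, the gelsolin gene of actin severing, had 7875 against 17896 reads (0.436 times) and *Ccdc80*, encoding a secreted matrix protein, 2890 against 8319 (0.344 times).

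Of 34 measured cell cycle genes 8 were at least 2-fold higher (23.5%, background 9.62%), 0 lower and 26 within 2-fold, with a median log2 ratio of 0.72. In all 3 columns 6 of the 34 were higher, where the share of all measured genes was 7.06%. *Aurka*, the gene of a mitotic kinase, had 748 reads with both cytokines, 494 with BMP-2, 490 with IL-17A and 280 with no cytokine (2.65-fold), and *Prc1*, which encodes a protein that bundles spindle microtubules, had 1093, 797, 697 and 442 in the same order (2.45-fold). *Ccna2*, the cyclin A gene, had 659, 461, 406 and 287 reads (2.27-fold), and for these 3 genes each single cytokine library lay between the other 2. *Kif11* (2.66-fold), *Bub1b* (2.14-fold) and *Ccnb2* (2.04-fold, but 1.94-fold with TMM) were the others, while *Mki67* reached 1.75 times (4.40 times in exon-exon reads, 49 against 11) and *Pcna* 1.31 times. Among cyclin D and CDK inhibitor genes 1 of 10 was higher (10%, near the background of 9.62%), though not in all 3 columns. Of the 10, 2 were lower (20%, background 8.21%). *Cdkn1c*, encoding the inhibitor p57, had 42 reads with both cytokines, 255 with BMP-2, 100 with IL-17A and 399 with no cytokine (0.104 times, 0.0740 to 0.143), and *Cdkn2b*, the gene of p15, had 397, 814, 430 and 909 (0.433 times).

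Complement and acute phase genes were higher in 4 of 11 measured (36.4%, background 9.62%) and lower in 1 (9.09%, near the background of 8.21%), with a median of 0.29 (1.03 over members averaging 10 reads or more). *C3*, the central complement gene, had 659 reads with both cytokines, 315 with BMP-2, 351 with IL-17A and 207 with no cytokine (3.15-fold). *Hp*, encoding the haemoglobin-binding protein haptoglobin, had 1883, 774, 822 and 521 in the same order (3.58-fold), and *Lrg1*, a leucine-rich glycoprotein gene, 201, 17, 111 and 30 (6.64-fold, 4.51 to 10.1). *Cfb*, the factor B gene of the alternative pathway, went the other way, at 107, 235, 467 and 326 reads (0.325 times), with its highest library that with IL-17A alone. Of 16 genes of oxidative stress and metal binding, 3 were higher (18.75%, background 9.62%) and 0 lower, with a median of 0.49. Beside the metallothioneins this was *Slc7a11*, the cystine carrier gene, which had 523 reads with both cytokines, 92 with BMP-2, 105 with IL-17A and 70 with no cytokine (7.40-fold, 5.76 to 9.64), so that the library with both stood alone above the other 3. *Hmox1* (0.996 times) and *Nqo1* (0.814 times), which respond to the factor NRF2, were within 2-fold.

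**Figure D4:**
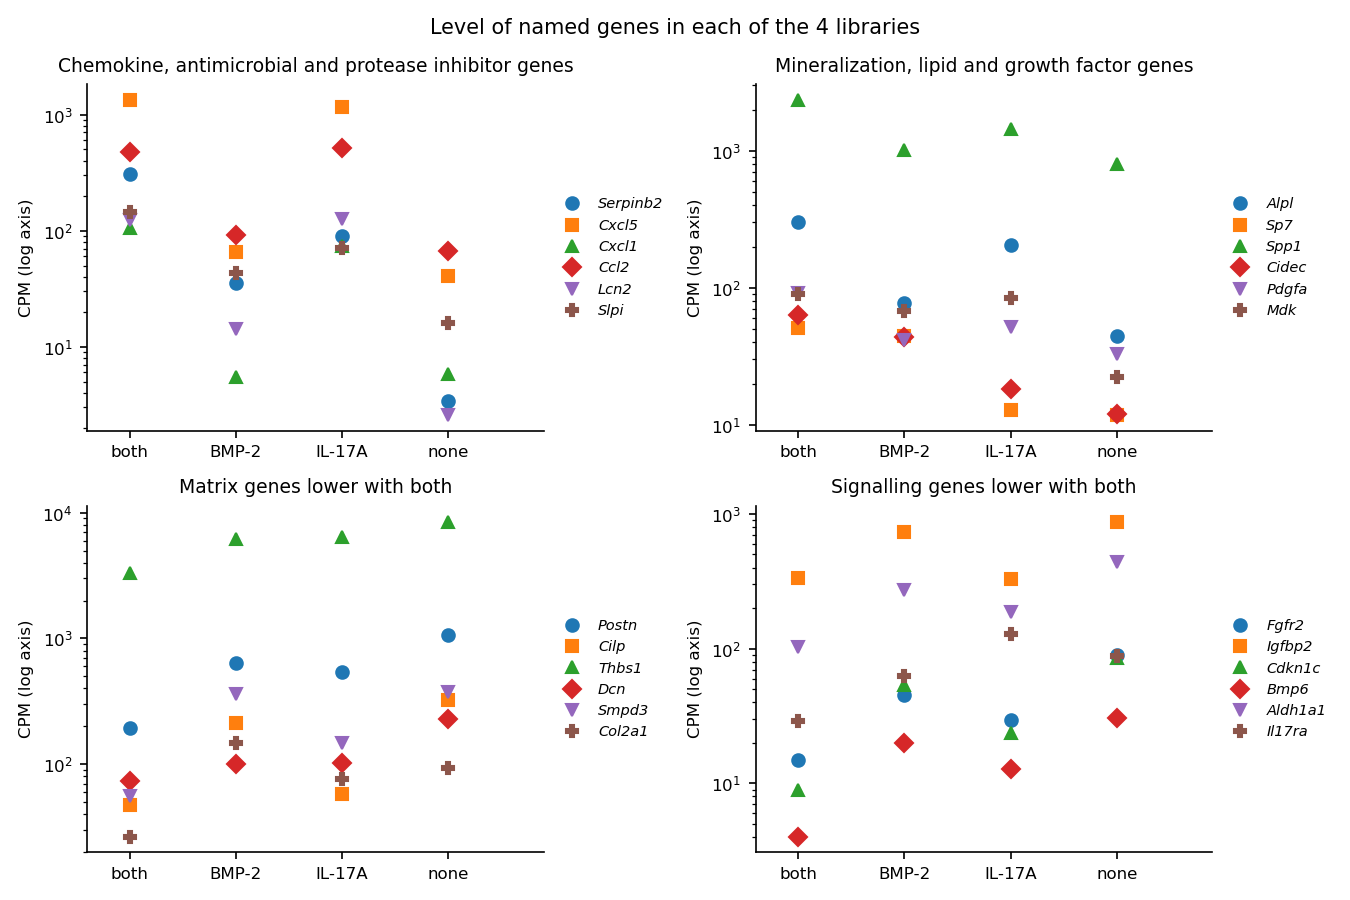
CPM (log axes) of 24 named genes in each of the 4 libraries, 1 point per gene and library, with both cytokines at the left and no cytokine at the right. *Cxcl5*, *Cxcl1*, *Ccl2* and *Lcn2* are high in the libraries with IL-17A, *Sp7* and *Cidec* in those with BMP-2, and *Postn*, *Thbs1*, *Fgfr2* and *Bmp6* are lowest with both cytokines.

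How often a gene was called depended on its reads. Of the 1806 genes averaging 50 to 100 reads 19.4% were higher and 17.2% lower, and the log2 ratios had an SD of 1.31, where counting error alone gives 0.24. At 200 to 500 reads the shares were 6.92% and 4.53% with an SD of 0.66, and at 1000 reads or more they were 2.94% each with an SD of 0.54, where counting gives 0.05. The libraries therefore differ by more than counting error at every depth, and how much of this would recur between cultures of 1 condition was not measured. Genes higher in all 3 columns had a median of 120.5 mean reads and those lower 115 reads, against 236 for the rest. By exon length, the 1718 longest genes had 8.09% higher and 9.20% lower in all 3 columns and the 1720 shortest 6.51% and 3.55%, with median log2 ratios of 0.02 and 0.16.

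**Figure D5:**
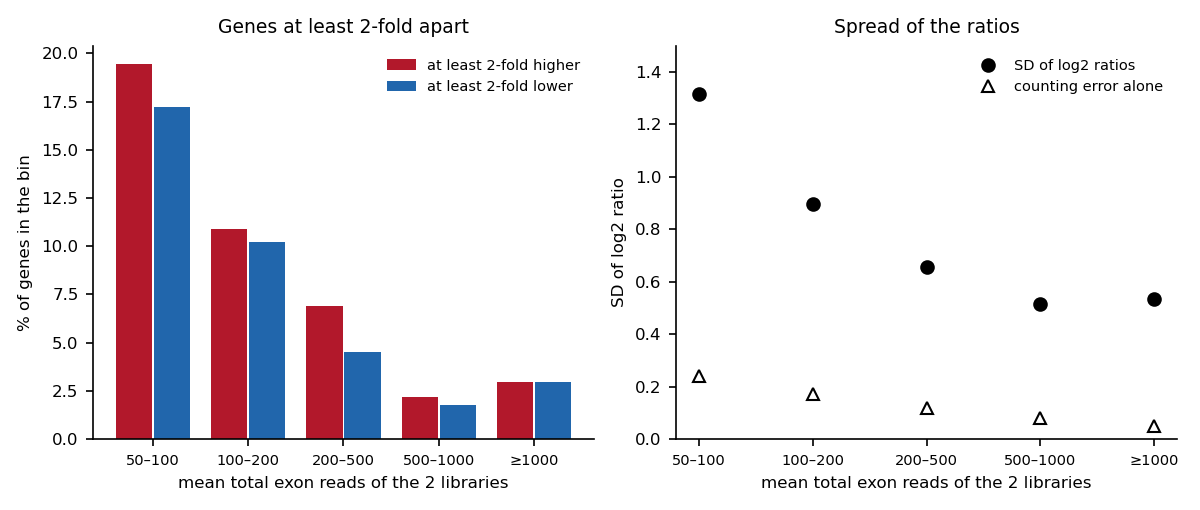
Percent of measured genes at least 2-fold higher (red) or lower (blue) with IL-17A + BMP-2 than with no cytokine (left), and the SD of the log2 ratios beside the SD that counting error alone would give (right), by the mean exon reads of the 2 libraries. Calls are most frequent at 50 to 100 reads (19.4% and 17.2%) and the SD lies above counting error in every bin.

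The further columns removed some calls. Of the 827 genes higher in exon reads 73.4% held in all 3 columns, and of the 706 lower genes 77.3%. Among the 220 higher genes that did not hold, 158 were under 2-fold in exon-exon reads, 42 in unique reads and 12 had no exon-exon reads. The most read of these were *Psmb5*, a proteasome gene with a ratio of 2.48 in exon reads and 1.17 in exon-exon reads, *Hmgn2* (2.53 and 3.36, but 1.65 in unique reads), *Mif*, *Snrpe* and *Stmn1*. Among genes named above that held, exon-exon reads also moved the ratio by over 1.5 times for *Tgfbr1* (0.0871 times), *Bmp4* (0.0429 times, 0.00104 to 0.264 on 1 read with both cytokines), *Fam13a* (10.7 times) and *G2e3* (7.90 times). On the lower side, 160 did not hold, and *Prelp*, *Prss23*, *Cd248*, *Fst* and *Fam198b* were the most read. *Cd248*, the gene of the stromal surface protein endosialin, has no exon-exon reads and was at 0.433 times in exon reads and 0.435 times in unique reads.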

How the data were processed

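The 4 libraries hold messenger RNA of PαS cells, with 1 library per condition. Total RNA was extracted, full-length cDNA was made and amplified with a low-input kit, sequenced on an Ion Proton and analysed in CLC Genomics Workbench. The build is mm10 by the submitters' processing notes. How reads were mapped and shared between genes is not given in the sources used here. The deposited counts are reads that the authors assigned to genes, total and unique, in exons, in introns and over exon-exon junctions. The RPKM values deposited by the authors (exon reads scaled by exon length and library size) were used for levels between genes of different length.

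Exon reads were scaled by their sum per library to 1000000 (CPM), and a ratio was formed for genes averaging 50 reads or more, with an exact 95% interval from the split of the counts, a floor of 3 reads for a library at 0, and a pseudocount of 0.5 CPM for log2 ratios. The ratio and its interval were tested on counts simulated with counting error alone. This is the error that the interval assumes. The simulation therefore cannot show how the interval performs with the wider spread of these libraries. The overall counts of genes called, the ratios of named genes and the list medians were recomputed from unique and from exon-exon reads. They were also recomputed with TMM (edgeR 4.0.16) or DESeq2 1.42.0 size factors (R 4.3.3). Other filters were applied to the overall counts and the list medians, and other fold thresholds to the overall counts alone. Shares of list members called, of depth and length groups and of promoters were not recomputed with other scalings. Python 3.11.15, numpy 2.4.6, pandas 2.3.3, scipy 1.17.1 and matplotlib 3.10.9 were used. With genes at 0 reads set at their bound, no list median moved by more than 0.02. The groups come from the labels of the samples.

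The comparison and the 34 gene lists, of 613 genes, were chosen with earlier results of these data known. Genes named are the 25 highest and 25 lowest in all 3 columns by the near bound of the interval, from each list up to 6 members per direction called in all 3 columns and up to 4 of the highest mean, *Alpl*, *Cidec* and *Pdgfa*, and genes the study measures. Named too are the 5 most read genes per direction that were called in exon reads but did not hold in all 3 columns. Other genes, those averaging 500 reads or more included, were named after their values were seen. Promoter sequences are from RefSeq (GRCm38.p6), in which *Cxcl5*, *Ccl2*, *Ccl7*, *Nfkbiz*, *Sp7* and *Hp* were not matched. Some genes that meet these rules are not reported here.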

Additional observations from a re-analysis of the deposited data

How the results depend on the processing

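The counts of genes at least 2-fold higher and lower, 827 and 706, moved with the filter and the fold asked for. They were 1557 and 1551 at a mean of at least 10 reads, 228 and 162 at a mean of at least 200 reads, 2801 and 3168 with no filter, 1787 and 1469 at a fold of 1.5, and 288 and 279 at a fold of 3. Unique reads (823 and 697), exon-exon reads (914 and 912), TMM (737 and 787), DESeq2 size factors (740 and 780), library sums without the 100 most abundant genes (768 and 747) and at least 2-fold in all 3 columns (639 and 573) kept each count within 1.5 times. With TMM and DESeq2 more genes were lower than higher, the reverse of the main scaling. *Fgf2* turned from higher to lower, at 0.937 in unique and 0.935 in exon-exon reads, with intervals that include 1. Medians of 8 lists moved by more than the counting error of their genes with genes down to 10 mean reads, of 6 lists in exon-exon reads and of 1 list in unique reads, and 0 moved with TMM, DESeq2 or without the 100 most abundant genes. With genes down to 10 mean reads the median log2 ratio was -0.16 for growth factor receptors, -0.73 for matrix glycoproteins, 1.03 for complement, 0.24 for prostaglandin and -0.23 for Wnt genes, and -1.53, 1.03 and -0.38 for macrophage, endothelial and muscle markers. In exon-exon reads it was -0.42 for BMP receptors and SMADs, -0.24 for Wnt genes, -0.30 for cyclins D and CDK inhibitors, 0.38 for oxidative stress genes, and -0.03 and -0.99 for Schwann cell and tendon markers, and in unique reads -1.55 for endothelial markers. Among genes named, *Smad7*, *Ccnb2*, *Slc20a2* and *Stmn1* were under 2-fold with all 3 other scalings, and *Timp2*, *Timp3* and *Bmpr1a* were lower by 2-fold with TMM and DESeq2. No paired analysis was possible because each condition has 1 library and the labels give no replicate numbers. With 1 library per condition, differences between cultures, animals and library preparations cannot be told apart from those of the cytokines.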

Other observations

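Further gene groups differed in the share of their members past 2-fold. Of 7 measured interferon-stimulated genes 3 were lower with both cytokines (42.9%, background 8.21%), 2 of them in all 3 columns. None was higher, and the median log2 ratio was -0.44. *Ifi35* had 77 reads with both cytokines, 186 with BMP-2, 137 with IL-17A and 334 with no cytokine (0.228 times, 0.176 to 0.293), and *Stat2*, encoding a transducer of interferon signals, had 56, 172, 137 and 194 in the same order (0.286 times). Of 8 measured Wnt ligand and antagonist genes 1 was higher (12.5%, background 9.62%) and 3 were lower (37.5%, background 8.21%), with a median of -0.67. *Dkk2* and *Sfrp2*, which encode secreted Wnt antagonists, had 107 and 161 reads with both cytokines against 442 and 440 with no cytokine (0.240 and 0.362 times), and *Wnt11*, a ligand gene, had 72 against 28 (2.55-fold). In the Notch pathway 1 of 5 measured genes was higher (20%, background 9.62%), namely *Notch2* (94 against 41 reads, 2.27-fold). The other 4 were within 2-fold (median 0.46).

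Of 9 measured prostaglandin genes 1 was higher and 1 lower (11.1% each, near the background of 9.62% and 8.21%), with a median of 0.49. *Ptges2*, a prostaglandin E synthase gene, was higher (211 against 76 reads, 2.75-fold). *Hpgd*, encoding the enzyme that inactivates prostaglandins, was lower in exon reads (72 against 181 reads, 0.394 times). Among 17 glycolysis genes 1 was higher (5.88%, under the background of 9.62%) and 16 were within 2-fold (median 0.16). The higher one was *Slc16a3*, a lactate carrier gene, at 172 reads with both cytokines, 38 with BMP-2, 264 with IL-17A and 47 with no cytokine (3.62-fold). Of 19 cholesterol synthesis genes 1 was higher and 1 lower (5.26% each, under the background of 9.62% and 8.21%), neither in all 3 columns (median -0.10). Of 18 genes of ATF4 and the unfolded protein response 0 were called (median -0.23). Of 17 contractile genes 3 were higher (17.6%, background 9.62%) and 2 lower (11.8%, near the background of 8.21%), with a median of 0.09. *Myh11*, the smooth muscle myosin gene, had 336, 319, 96 and 158 reads with both, BMP-2, IL-17A and no cytokine (2.11-fold), while *Des*, the desmin gene, had 46, 112, 78 and 139 (0.328 times). Of 10 measured genes that mark PαS and other mesenchymal cells 1 was lower (10%, near the background of 8.21%), and the median was -0.43. It was the chemokine gene *Cxcl12*, which had 268, 210, 945 and 696 reads in the same order (0.381 times).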
